A study of Mus musculus with 13 samples.

Results

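The cytosolic ribosomal protein genes were followed across 13 single-colour mouse arrays of cardiac reprogramming, with 1 array per group. Members were taken by name, as every gene whose symbol is that of a protein of the large subunit (Rpl, with the stalk protein Rplp1) or of the small subunit (Rps). The rule found 56 of 16390 measured genes, read by 59 of 23473 probes. Of the members, 35 belong to the large and 21 to the small subunit. For the 3 genes with several probes (Rpl26, Rpl37a and Rpl5) the probe with the highest mean deposited value was used. Rpl3, Rpl12, Rpl13, Rplp0, Rplp2, Rps6 and Rack1 were not analysed here, nor were the family genes that the probe table holds under names outside the rule, such as Fau and Rpsa. The probe for Rps3a is given under its current symbol, Rps3a1.

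Induced cardiomyocyte-like cells (iCMs) are fibroblasts in which introduced transcription factors switch on heart muscle genes. GMT iCMs received Gata4, Mef2c and Tbx5 and were sorted for GFP driven by the αMHC promoter, which is active in cardiomyocytes. They were taken at 4 and 2 weeks in FFV medium (FGF2, FGF10 and VEGF), in serum-free medium (SF) and in medium with serum (FBS). MT iCMs (Mef2c and Tbx5) came from FFV. GMTMM iCMs (GMT with Mesp1 and Myocd) were made from tail-tip fibroblasts (TTFs), in FFV and in FBS. Neither a time nor a sort is labelled for the GMTMM and MT iCMs. Mouse embryonic fibroblasts (MEFs), TTFs, a heart of postnatal day 1 (P1) and a heart of embryonic day 12 (E12) complete the set. Strain, sex and the number of animals or cultures behind each array are not stated in the labels.

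The cytosolic ribosome is built from a large and a small subunit, each a ribosomal RNA core dressed with many proteins that are needed in nearly equal amounts. Their mRNAs are among the most abundant of dividing and growing cells, and most of them start with a run of pyrimidines, the TOP motif, through which mTOR signalling sets their translation. Some members have paralogs that replace them in certain tissues: Rpl3l stands in for Rpl3 in heart and skeletal muscle, and Rpl22l1 and Rps27l are paralogs of Rpl22 and Rps27. In the weeks after birth, growth of the mouse heart shifts from dividing its muscle cells to enlarging them.

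Values are log2 spot intensities after background correction and quantile normalisation, called levels here. A probe is said to lie well above background where its spot was over 2 SD brighter than the blank spots' mean. Between 78.4% and 91.5% of probes did so on each array. The blank mean was 13.1 to 15.4 on the arrays of the GMT iCMs, MEFs and hearts, and 39.9 to 41.1 on those of the TTFs, GMTMM and MT iCMs. By their identifiers the arrays belong to 3 series: 1 holds all GMT iCMs and the E12 heart, another the P1 heart and MEFs, and the last the MT and GMTMM iCMs and TTFs. Cell type and array series therefore cannot be told apart in comparisons across series. The 11 cardiomyocyte markers had a median level of 8.77 to 10.66 in GMT iCMs, 7.16 in MT iCMs, 6.27 and 5.90 in GMTMM iCMs in FFV and FBS, 5.81 in MEFs, 5.82 in TTFs, 13.63 in the P1 heart and 12.49 in the E12 heart. In the GMTMM iCMs most of these markers therefore lay near their fibroblast level, although troponin T (Tnnt2) read 10.49 in FFV and 8.86 in FBS, against 5.74 in TTFs. With 1 array per group no level carries a replicate error, and precision is limited by how few arrays there are.

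Nearly all members could be measured on every array. Of the 56 members, 55 lay well above background on all 13 arrays, and Rpl3l did so on 4. Some passed this limit narrowly. The Rps12 spot read 18.8 in GMT iCMs at 2 weeks in FBS (limit 18.3), and that of Rpl37 read 15.9 in the P1 heart (limit 15.5). Rps12, Rpl10 and Rpl37 had mean deposited values of 3.2, 4.0 and 4.9. The members split by signal into a bright and a dim set, a division made after seeing the data. The 38 bright members had mean deposited values between 1254 (Rpl13a) and 25681 (Rpl41). They are Rpl4, Rpl5, Rpl6, Rpl7, Rpl7a, Rpl8, Rpl10a, Rpl11, Rpl13a, Rpl15, Rpl19, Rpl22l1, Rpl24, Rpl26, Rpl27a, Rpl28, Rpl32, Rpl35, Rpl35a, Rpl36, Rpl37a, Rpl39, Rpl41 and Rplp1 of the large subunit (24), and Rps3, Rps3a1, Rps4x, Rps7, Rps9, Rps10, Rps14, Rps15, Rps16, Rps18, Rps23, Rps26, Rps27 and Rps27l of the small subunit (14). The 18 dim members reached at most 245 (Rpl7l1): Rpl3l, Rpl7l1, Rpl10, Rpl14, Rpl17, Rpl21, Rpl22, Rpl29, Rpl30, Rpl37, Rpl38, Rps12, Rps15a, Rps19, Rps20, Rps21, Rps24 and Rps25. A level depends on the probe as well as on the transcript, so levels are compared between arrays for 1 gene and not between genes. Ribosomal protein genes have many processed pseudogenes of near-identical sequence, and whether a probe also reads those is not known from these files.

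After quantile normalisation the bright members' median level was 12.76 in the P1 heart and 13.11 to 13.59 on the other arrays. That step gives all arrays the same distribution of values, and the bright members' median percentile was 99.3 to 99.8 on each array. It therefore limits how far their levels can differ. With median scaling the bright members' median difference of GMT iCMs from the E12 heart was 0.58, and it was 0.15 with quantile normalisation. The bright members' median level in GMT iCMs at 4 weeks was 13.26 in FFV, 13.11 in SF and 13.38 in FBS. At 2 weeks it was 13.38 in FFV, 13.21 in SF and 13.45 in FBS. It was 13.27 in MT iCMs and 13.46 and 13.34 in GMTMM iCMs in FFV and FBS, against 13.59 in MEFs, 13.52 in TTFs, 12.76 in the P1 heart and 13.17 in the E12 heart. The P1 heart was thus lowest and the MEFs highest. Taken singly, 26 of the 38 bright members had their lowest level in the P1 heart, where 16.5% of 15670 genes had theirs, and 5 in the E12 heart (12.6% of genes). The highest level fell in MEFs for 11 members (8.78% of genes) and in TTFs for 7 (9.43%). The number with their lowest level in the P1 heart was 15 when the local surround of each spot was subtracted and 26 to 31 under 5 other settings. The shares of all genes under those settings are not given here.

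**Figure D1:**
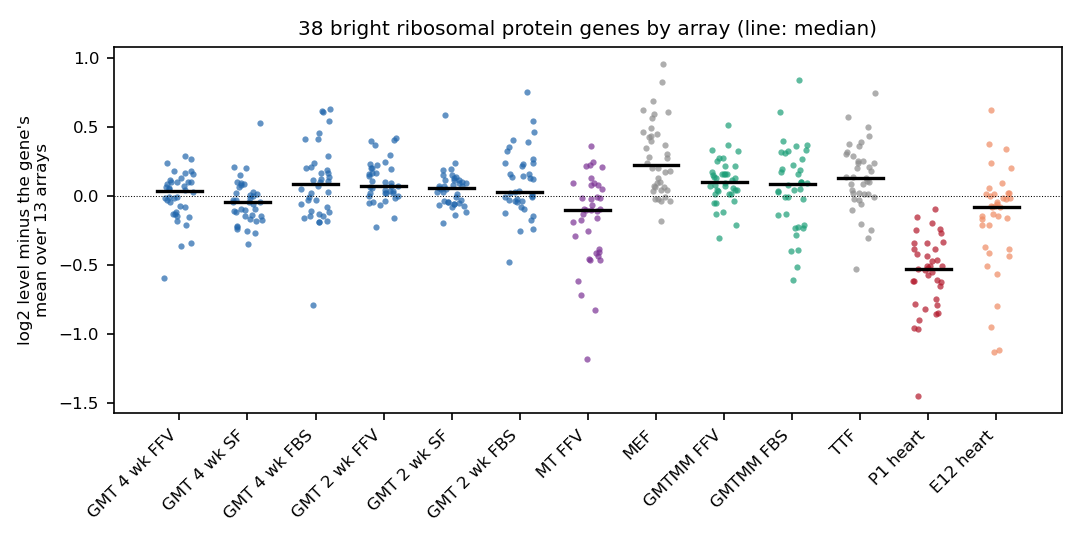
Each point is 1 of the 38 bright ribosomal protein genes on 1 array, as its log2 level minus that gene's own mean over the 13 arrays, and each line is the median of the 38. By median the P1 heart lies below the other arrays and the MEFs lie highest.

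The start sites of the members that the results below turn on are shown because the family is known by its shared promoter architecture. RefSeq windows of build GRCm38.p6, from 250 bases before to 50 bases after each start, matched 45 members with 56 windows, and 11 members had none. The stretches run 5′ to 3′ on the gene's strand, from 40 bases before the start to 15 bases after it. Capitals mark the longest unbroken run of C and T within 15 bases of the start, or the first of several equally long ones. A run that reaches the end of the stretch may go on beyond it. Where a gene has several windows, the one with the longest run is given. Rpl13a, Rpl28 and Rpl27a are the members at least 2-fold lower in the P1 than in the E12 heart. Rpl14 and Rps24 follow Rpl13a as the lowest estimates in FFV against FBS, Rps27 varies least around the members' median, and the last 4 are named below for levels in the hearts, MT iCMs or MEFs.
Rpl13a, chr7:45128731-45128785, minus strand: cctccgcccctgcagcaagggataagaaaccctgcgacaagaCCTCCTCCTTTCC
Rpl28, chr7:4792925-4792979, plus strand: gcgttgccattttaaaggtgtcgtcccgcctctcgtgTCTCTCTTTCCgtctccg
Rpl27a, chr7:109519155-109519209, plus strand: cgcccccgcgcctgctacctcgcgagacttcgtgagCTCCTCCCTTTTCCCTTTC
Rpl14, chr9:120571477-120571531, plus strand: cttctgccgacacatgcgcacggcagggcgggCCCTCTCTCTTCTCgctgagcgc
Rps24, chr14:24490638-24490692, plus strand: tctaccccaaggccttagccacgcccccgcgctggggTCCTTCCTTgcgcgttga
Rps27, chr3:90213634-90213688, minus strand: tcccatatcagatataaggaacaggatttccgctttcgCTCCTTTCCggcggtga
Rps27l, chr9:66946046-66946100, plus strand: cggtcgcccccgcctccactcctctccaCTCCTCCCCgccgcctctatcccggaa
Rpl22l1, chr3:28805468-28805522, plus strand: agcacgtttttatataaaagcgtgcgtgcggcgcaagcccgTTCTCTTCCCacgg
Rps7, chr12:28635939-28635993, minus strand: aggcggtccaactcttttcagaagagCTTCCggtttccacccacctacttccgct
Rpl3l, chr17:24727786-24727840, plus strand: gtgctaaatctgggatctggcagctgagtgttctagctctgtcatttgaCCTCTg

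A run of at least 8 pyrimidines lay within 15 bases of the start, on the gene's strand as printed, in 21 of the 45 members with a window (46.7%). Of all 27025 genes with a window 13.9% had one, and of the 13127 measured genes with a window 14.5%. The run was at least 13 bases long for Rpl13a, where it reached the end of the searched stretch. It was 14 bases long for Rpl14, and 5 for the muscle paralog Rpl3l. Over the whole window and both strands, CCGGAAG, the core bound by ETS factors, was present in 42.2% of members. It was present in 9.93% of all genes and in 14.7% of measured genes. AAGATGG, part of the YY1 motif, was present in 22.2% of members, 7.28% of all genes and 7.53% of measured genes. The TATA box letters TATAAA were present in 6.67% of members, 15.7% of all genes and 12.5% of measured genes. CCGGAAG and AAGATGG can overlap by the letters AAG, and CCGGAAG read on the other strand holds the pyrimidines CTTCC. A match describes letters and not a bound site.

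GMT iCMs were set against the P1 heart to ask how near the reprogrammed cells come to heart tissue. Ribosomal protein genes were higher in the iCMs, by a median of 0.47 on the log2 scale over 56 members and of 0.54 over the bright ones, where the median of all measured genes was 0.01. Of the bright members 32 of 38 were higher than in the P1 heart in all 6 iCM arrays and 0 were lower in all 6. Among all measured genes 33.5% were higher in all 6 and 31.1% were lower in all 6. The large subunit had a median of 0.45 and the small subunit one of 0.51. The 18 dim members had a median of 0.08, which depended on the setting. It was 0.61 in the deposited value table, where the bright members had 0.70. The dim median was 0.35 on blank-subtracted signal, 0.20 with median scaling and 0.05 with the surround subtracted.

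Rpl13a, a large-subunit protein that in human myeloid cells also leaves the ribosome to silence inflammatory mRNAs, had the largest mean difference among the members that were higher. Its level was 10.08, 10.50 and 11.28 in GMT iCMs in FFV, SF and FBS at 4 weeks and 10.75, 10.64 and 11.43 at 2 weeks, against 9.22 in the P1 heart. All 6 iCM arrays lay above the heart, by a mean of 1.56, and the pairs ranged from 0.86 to 2.21. Rps27l, a paralog of Rps27 that p53 induces, followed with a mean of 1.26. It was the member at least 2-fold higher in all 6 pairs, as were 2.94% of all measured genes. Rpl10a (1.03), Rps26 (1.01) and Rpl27a (1.01) came next. The count of members 2-fold higher was 12 with median scaling and 17 on blank-subtracted signal. The shares of all genes under these settings are not given here, so these counts cannot be read as particular to the members. The members' median stayed above 0 under every setting tried. With the surround subtracted Rps27l was not among the 4 members called (Rpl10a, Rpl13a, Rpl24 and Rps9). All 13 cell cycle genes and all 7 endothelial markers were lower in the 6 iCM arrays than in the P1 heart, by medians of -1.29 and -2.53, and their part in the result was not tested.

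Rpl3l was the member that ran the other way by more than 2-fold, as did 4.09% of genes. Its spot read 91.5 in the P1 heart, where the limit for background was 15.5. In GMT iCMs it read 14.7 to 16.7 and passed the limit on 1 of the 6 arrays, the one of FFV at 4 weeks (16.2, limit 14.9). With 5 of the 6 iCM arrays not well above background only a limit can be given, at least 3.0-fold lower in GMT iCMs than in the P1 heart. It was no longer called 2-fold lower in the deposited value table or with the surround subtracted. Of the dim members, Rps15a was lower in GMT iCMs by a mean of 0.71 on the log2 scale (pairs from -0.86 to -0.45), and Rps25 by 0.23 (pairs from -0.33 to -0.09). Rpl14, with a mean of -0.35, had pairs on both sides of 0 (-0.88 to 0.27).

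**Figure D2:**
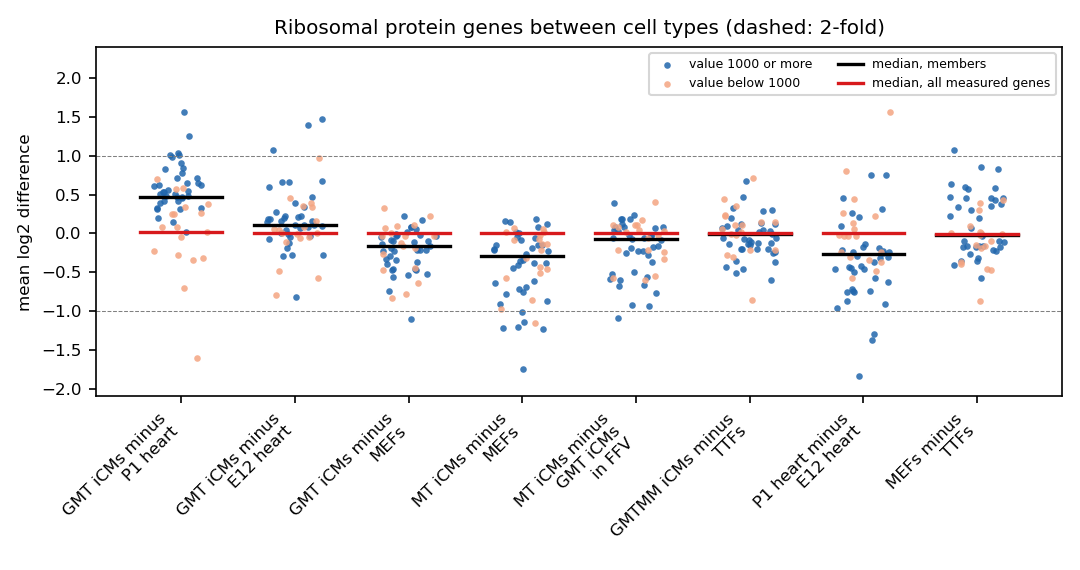
Each point is 1 of the 56 ribosomal protein genes, as its mean log2 difference over the array pairs of a comparison, in blue for bright and in orange for dim members. Black lines are the members' medians and red lines those of all measured genes. The GMT iCMs minus P1 heart column lies above 0 at a median of 0.47, and the P1 minus E12 heart and MT iCMs minus MEFs columns lie below it at -0.27 and -0.29.

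P1 was then set against E12 to follow the family through heart development. Ribosomal protein genes were lower in the P1 heart, by a median of -0.27 over all members and of -0.39 over the bright ones, with 42 of 56 members lower and 14 higher, where 50.2% of all measured genes were lower and 49.8% higher. Rpl13a read 9.22 in the P1 heart and 11.05 in the E12 heart, a difference of -1.83. Rpl28 read 10.37 and 11.75, and Rpl27a 12.40 and 13.69, in the P1 and the E12 heart. These 3 large-subunit members were at least 2-fold lower in P1, as were 4.29% of genes, and Rps26 (-0.96) and Rpl35 (-0.91) came next. Rpl13a and Rpl28 stayed at least 2-fold lower under all 6 other settings, and Rpl27a under 5.

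Several members were higher in the P1 heart. Rpl3l read 7.35 in the P1 heart and 5.79 in the E12 heart, where its spot (17.3) was just over the limit (15.1). It was the 1 member at least 2-fold higher, as were 4.61% of genes, except with the surround subtracted. Rpl14 was higher by 0.80, and Rps3 and Rps7 by 0.76 and 0.75, although Rps3 turned to -0.57 under 1 of the 6 other settings. Rpl5 had a difference of -0.22 by its brighter probe and of 0.92 by its dimmer one, so its direction depends on the probe. Rpl11, which with Rpl5 and the 5S RNA can hold Mdm2, was at its lowest in the P1 heart (11.98, against 12.40 in the E12 heart). Markers of other cells moved with this comparison too. The 7 endothelial markers had a median of 9.34 in the P1 heart and 7.64 in the E12 heart, with 4 of 7 higher in P1, and all 8 macrophage markers were higher in P1. The 1 measured erythroid marker of 6 read 9.48 in the P1 heart and 7.41 in the E12 heart, and the 13 cell cycle genes had medians of 8.80 in P1 and 9.51 in E12, with 12 lower in P1. Their part in the result was not tested. In tissue and cell pools, fewer cells of a type and less RNA per cell cannot be told apart. The 2 hearts also lie in different array series.

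Against the E12 heart, which shares its array series, GMT iCMs differed less. The median was 0.11 over all members and 0.15 over the bright ones, with 25 of 56 members higher in all 6 arrays and 9 lower. The shares of all measured genes were 31.9% and 30.2%. None was 2-fold lower in every pair, where 3.68% of genes were. Rps27l and Rps7 were at least 2-fold higher in all 6 pairs, as were 3.19% of genes. Rps27l read 12.53, 12.90 and 12.49 in FFV, SF and FBS at 4 weeks and 12.74, 12.95 and 12.72 at 2 weeks, against 11.25 in the E12 heart. Its GMT values did not overlap with either heart. Rps7, which can bind the p53 ligase Mdm2, read 12.81 to 13.27 in the 6 iCM arrays, against 11.60 in the E12 heart. With the surround subtracted Rps27l alone was called. Rps3 (1.08) and Rps19 (0.96) had the next largest means. Rps19, which is mutated in human Diamond-Blackfan anaemia, joined the 2-fold group under 3 of the 6 other settings. Rpl28 (-0.82), Rpl22 (-0.79), Rps25 (-0.58), Rps15a (-0.49) and Rpl36 (-0.28) were lower than in the E12 heart in all 6 arrays. All 13 cell cycle genes (median -2.57) and 6 of 7 endothelial markers (median -1.51) were lower in all 6 arrays too, and their part in the result was not tested.

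MEFs, the cells of origin of GMT and MT iCMs, held the highest family level. GMT iCMs had a median difference of -0.16 from MEFs over all members and of -0.20 over the bright ones. Of 56 members 24 were lower in all 6 iCM arrays and 5 were higher, where 29.4% and 29.9% of all measured genes were. None was 2-fold apart in every pair, against 2.92% of genes lower and 1.96% higher. The stalk protein Rplp1, which helps recruit elongation factors, had the largest mean difference, -1.11. It read 12.85, 12.79 and 12.74 in FFV, SF and FBS at 4 weeks and 12.87, 13.02 and 12.45 at 2 weeks, against 13.89 in MEFs. Under 1 of the 6 other settings this difference was 0.01. Rps25, Rps24, Rpl26 and Rpl39 had means of -0.83, -0.78, -0.54 and -0.47, with every pair below 0. The 5 members higher in all 6 iCM arrays were Rpl29 (0.33), Rpl10a (0.22), Rpl7l1 (0.22), Rpl21 (0.11) and Rpl10 (0.07). Of these, the Rpl10 probe lay near background. Its spot read 18.1 to 23.4 in GMT iCMs and 19.0 in MEFs, where the limit was 16.9. All 8 macrophage and all 8 fibroblast markers were lower in the 6 iCM arrays as well. The macrophage medians were 6.26 to 8.12 in GMT iCMs and 10.79 in MEFs. Those of fibroblasts were 7.02 to 9.19 in GMT iCMs and 11.58 in MEFs. Of 13 cell cycle genes 12 were lower in all 6 iCM arrays too (median -1.34). The part of these gene lists in the result was not tested.

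MT iCMs had a median difference from the same MEF array of -0.29 over all members and of -0.35 over the bright ones, with 45 of 56 members lower (49.9% of genes) and 11 higher (49.4%). At least 2-fold lower were 7 members: Rpl13a, Rpl15, Rpl22l1, Rpl39, Rps7, Rps24 and Rps27l, where 4.49% of genes were. None was 2-fold higher, where 4.79% of genes were. Rpl13a read 9.49 in MT iCMs and 11.24 in MEFs. Rpl39, a small protein lining the exit tunnel, read 11.70 in MT iCMs and 12.93 in MEFs, and Rpl22l1 read 11.18 in MT iCMs and 12.39 in MEFs. Rps24 read 6.74 in MT iCMs and 7.89 in MEFs. Rpl13a, Rpl15, Rpl22l1 and Rps7 remained at least 2-fold lower under all 6 other settings. The MT array is in FFV and lies in a different array series from the MEFs. Factors, medium and array series therefore cannot be told apart here. All 8 macrophage markers (median -4.58), 6 of 8 fibroblast markers (median -2.61) and 12 of 13 cell cycle genes (median -0.90) were lower in MT iCMs as well, and their part was not tested.

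Set against GMT iCMs in the same FFV medium, MT iCMs had a median of -0.07 over all members and -0.12 over the bright ones, with 16 members higher in both pairs (43.4% of genes) and 28 lower (40.8%), and 0 members were 2-fold apart in both pairs (1.92% of genes were lower and 2.75% higher). With the surround subtracted 6 were lower and 2 higher, and the share of all genes under that setting is not given here. Rps27l had a mean of -1.09, with 11.54 in MT iCMs and 12.53 and 12.74 in GMT iCMs at 4 and 2 weeks. Rpl22l1 had one of -0.94, with 11.18 in MT iCMs and 12.14 and 12.10 in GMT iCMs. Rpl13a (-0.92), Rpl39 (-0.77) and Rps3a1 (-0.68) followed, of which Rpl39 turned to 0.03 under 1 of the 6 other settings. Rps25 (0.41), Rps15 (0.39) and Rpl6 (0.24) were the highest. Of the 11 cardiomyocyte markers 8 were lower in MT iCMs in both pairs (median -2.42), and their part was not tested. MT and GMT iCMs lie in different array series.

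GMTMM iCMs and TTFs, which share a series, had nearly the same family level. The median difference was -0.01 over the 55 members measured above background in this comparison, with 19 higher and 21 lower in both pairs, where 32.1% and 34.4% of genes were. The median turned to 0.10 with median scaling and to 0.17 in the deposited value table. None was 2-fold apart in both pairs (1.02% of genes were higher and 0.893% lower). Rpl14 was the lowest at a mean of -0.86, with 7.72 and 8.29 in GMTMM iCMs in FFV and FBS and 8.87 in TTFs. Rpl29 was the highest at 0.71, with 9.19 and 8.70 in GMTMM iCMs and 8.23 in TTFs. Rps18 (-0.51) and Rpl24 (-0.43) were also lower in both, and Rps4x (0.46) and Rplp1 (0.33) higher. Rpl41, which codes for one of the smallest proteins known, read 15.54 on both GMTMM arrays and 14.87 in TTFs. Of 13 cell cycle genes 12 were higher on both GMTMM arrays (median 1.39), and their part was not tested.

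The 2 fibroblast types showed no steady difference in the family, and members 2-fold apart were no more frequent than among all measured genes. MEFs minus TTFs gave a median of -0.02 over 55 members, with 24 higher (48.9% of genes) and 31 lower (51.1%), and its sign changed between settings (-0.18 in the deposited value table, 0.07 with the surround subtracted). Rps7 was at least 2-fold higher in MEFs, as were 2.80% of genes, with 13.55 in MEFs and 12.48 in TTFs. Rplp1 (0.85), the X-linked Rps4x (0.83), Rpl5 (0.63) and Rpl15 (0.60) followed. Rpl29 (-0.87), Rpl28 (-0.57), Rpl14 (-0.48) and Rps19 (-0.46) were the lowest, and 0 members were 2-fold lower, where 2.60% of genes were. Of 13 cell cycle genes 12 (median 1.22) and of 8 macrophage markers 7 (median 1.55) were higher in MEFs, and their part was not tested.

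**Figure D3:**
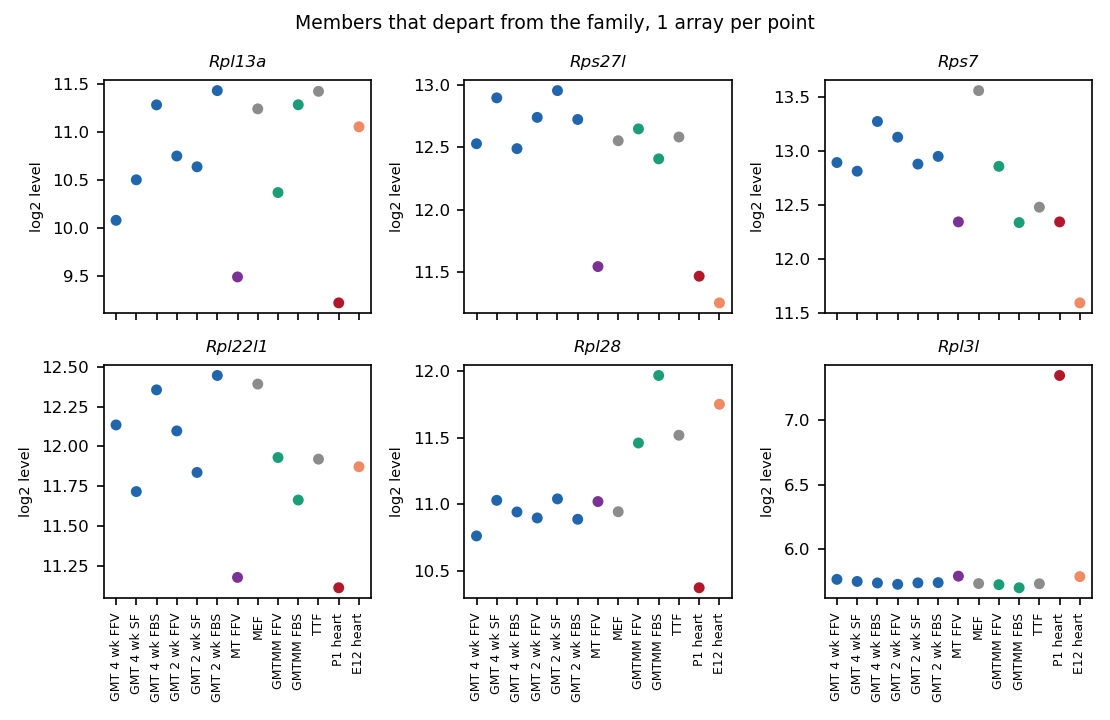
Log2 levels of 6 ribosomal protein genes on the 13 arrays, 1 point per array, each panel with its own axis. Rpl13a, Rps27l and Rpl22l1 are low in MT iCMs and in the P1 heart, Rps7 and Rps27l are lowest in the E12 heart, and Rpl3l stands out in the P1 heart alone.

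With each array's median over the 56 members taken off, the spread left over the 13 arrays described how far single members lay from the family. The SD was largest for Rpl13a (0.641), Rpl29 (0.531), Rpl14 (0.480) and Rpl22 (0.472), leaving aside Rpl3l (0.597), whose probe was not well above background on 9 of the 13 arrays. With the bright members' median taken off instead, a choice made after seeing the data, Rps27l (0.491) took the place of Rpl22 (0.400). Rpl13a was low in the P1 heart and in MT iCMs, and lower in both FFV and SF than in FBS. Rps27l split the arrays into GMT iCMs, GMTMM iCMs and fibroblasts at 12.41 to 12.95 and both hearts and MT iCMs at 11.25 to 11.54, with no value between. The SD was smallest for Rps27 (0.121), Rpl19 (0.127) and Rpl35a (0.136), and Rps27 also stayed among the lowest 3 with the bright median (0.120), beside Rpl4 (0.106) and Rps20 (0.114).

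Among the paralogs, Rpl22l1 was lowest in the P1 heart (11.11) and in MT iCMs (11.18) and highest in GMT iCMs at 2 weeks in FBS (12.45). Its parent Rpl22 was lowest in GMT iCMs at 4 weeks in SF (7.51) and highest in the E12 heart (8.98). Rps27 read 13.39 to 13.74 in GMT iCMs, 13.04 in the P1 heart and 13.36 in the E12 heart, and lacked the gap that parted Rps27l. Rpl7l1, which resembles Rpl7, differed from the P1 heart by a mean of 0.59 in GMT iCMs, and Rpl7 by 0.45, and both were higher in all 6 iCM arrays. The parent of Rpl3l, Rpl3, was not analysed here.

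Medium was tested across 8 iCM arrays, with the cell context as a term (GMT iCMs of each age, and GMTMM iCMs), because the series asks how iCMs respond to defined culture. With limma and Benjamini-Hochberg adjustment over 15245 genes, 0 of 55 members passed in FFV against FBS. Among all genes 6 passed (0.0394%), of which 2 rose (0.0131%) and 4 fell (0.0262%). At an unadjusted p under 0.05 limma had 0 members higher and 5 lower, where 5.60% and 5.13% of genes were. The members' median difference was -0.04. Rpl13a had the lowest estimate, -0.93 ± 0.15 (SE, adjusted p = 0.176). FFV and FBS read 10.08 and 11.28 in GMT iCMs at 4 weeks, 10.75 and 11.43 at 2 weeks, and 10.37 and 11.28 in GMTMM iCMs. All 3 pairs were lower in FFV and the values did not overlap. Rpl14 had -0.65 ± 0.12 (adjusted p = 0.196) and Rps24, another member with a role in human Diamond-Blackfan anaemia, -0.48 ± 0.10 (adjusted p = 0.220), each with 3 of 3 pairs lower.

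In SF against FBS, limma again called 0 of 55 members, while 7 of all genes passed (0.0459%), 3 that rose (0.0197%) and 4 that fell (0.0262%). At an unadjusted p under 0.05 it had 1 member higher (Rps27l, 0.35 ± 0.14) and 9 lower, where 7.39% and 5.63% of genes were. The median was -0.04. The lowest estimates were those of Rpl22 (-0.80 ± 0.26, adjusted p = 0.317), Rpl13a (-0.78 ± 0.17, adjusted p = 0.196), Rpl14 (-0.63 ± 0.14, adjusted p = 0.193), Rpl22l1 (-0.53 ± 0.18, adjusted p = 0.324) and Rps24 (-0.50 ± 0.12, adjusted p = 0.206). SF and FBS read 7.51 and 8.70 for Rpl22 in GMT iCMs at 4 weeks and 7.85 and 8.58 at 2 weeks. FFV against SF gave 0 called members and 0 called genes (0%) by limma. At an unadjusted p under 0.05 it had 1 member, Rpl22 (0.71 ± 0.26, adjusted p = 0.872), and 5.03% of genes. SF was used for GMT iCMs only, so in this fit the SF estimates also draw on the GMTMM difference between FFV and FBS. For Rpl22 that estimate lies above both measured pairs of FFV against SF, 0.44 at 2 weeks and 0.66 at 4 weeks. Over the 6 GMT arrays alone it was 0.55. SF and FFV each differ from FBS with the same FBS arrays, so both comparisons share their controls.

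Over the 6 GMT arrays alone, limma called Rpl13a (-0.94 ± 0.17, adjusted p = 0.0377) and Rpl14 (-0.69 ± 0.13, adjusted p = 0.0405) lower in FFV than in FBS, 2 of 55 members where 2.36% of genes fell. In SF against FBS it called 6 of 55 members lower, where 5.97% of genes fell: Rpl22 (-0.96 ± 0.14, adjusted p = 0.0136), Rps20 (-0.24 ± 0.04, adjusted p = 0.0238), Rpl14 (-0.65 ± 0.13, adjusted p = 0.0307), Rpl22l1 (-0.62 ± 0.12, adjusted p = 0.0313), Rpl13a (-0.79 ± 0.17, adjusted p = 0.0375) and Rps24 (-0.48 ± 0.10, adjusted p = 0.0378). These calls rest on leaving out the GMTMM arrays. The Rps20 probe is dim: at 2 and 4 weeks its spot read 49.5 and 42.1 in FBS and 29.9 and 27.4 in SF. The blank means of these arrays were 13.4 to 15.4. On blank-subtracted signal Rps20 was at least 2-fold lower in SF in both pairs, so the size of its difference depends on the setting. Whether the FFV effect differed between GMTMM and GMT iCMs was looked at with an added term. The GMTMM context has 1 array in each medium, which this term fits exactly, so the spread came from the GMT arrays alone (2 residual degrees of freedom) and GMTMM arrays were assumed to vary like them. Under that assumption limma called 1463 of 15245 genes (9.60%) and 0 of 55 members, the nearest being Rpl22 (0.98 ± 0.24, adjusted p = 0.0559) and Rpl7a (0.84 ± 0.21, adjusted p = 0.0588). Rpl22 read 8.90 in FFV and 8.33 in FBS in GMTMM iCMs, the reverse of its order in GMT iCMs (8.17 and 8.70 in FFV and FBS at 4 weeks, 8.29 and 8.58 at 2 weeks). Markers of other cells moved with medium as well. All 8 macrophage markers had lower estimates in FFV than in FBS, with a median of -2.03. In SF against FBS 7 of 8 macrophage markers (median -1.53), all 8 fibroblast markers (median -1.06, of which limma called 1) and 11 of 13 cell cycle genes (median -0.36) had lower estimates. Their part in these results was not tested.

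**Figure D4:**
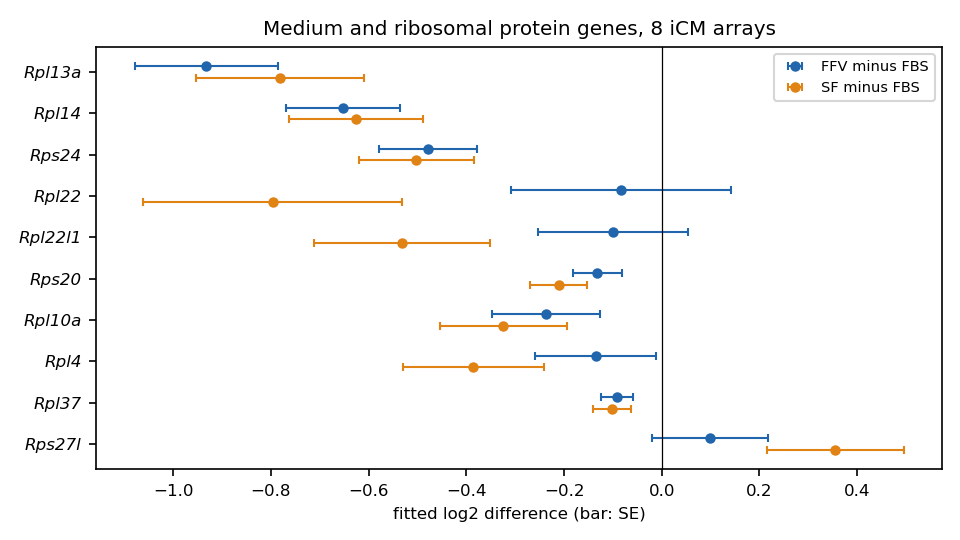
Fitted log2 differences of 10 ribosomal protein genes over 8 iCM arrays, for FFV minus FBS in blue and SF minus FBS in orange, with bars for the SE. Rpl13a, Rpl14 and Rps24 lie below 0 in both media, while Rpl22 and Rpl22l1 lie further below 0 in SF.

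Time was tested on the 6 GMT arrays, at 4 against 2 weeks with medium as a term. Limma called 0 of 55 members and 0 of 15036 genes (0%), and at an unadjusted p under 0.05 it had 0 members higher (4.17% of genes) and 6 lower (4.62% of genes). The members' median was -0.05. Rpl32 had the lowest estimate, -0.59 ± 0.18 (adjusted p = 0.550), of which the FBS pair carried most: 13.55 at 4 weeks and 14.61 at 2 weeks in FBS, 14.42 and 14.58 in SF, and 14.20 and 14.75 in FFV. Rpl14 had -0.39 ± 0.10 (adjusted p = 0.550), with all 3 pairs lower at 4 weeks. All 8 fibroblast (median 0.33) and all 8 macrophage markers (median 0.35) had higher estimates at 4 weeks, and their part was not tested.

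Other genes of the translation apparatus put the family in its setting. In GMT iCMs against the P1 heart, 19 genes with TOP mRNAs that the naming rule did not take had a median of 0.77. Of these genes, 15 were higher in all 6 arrays and 2 lower, where 33.5% and 31.1% of all measured genes were. Among them were the poly(A) binding protein Pabpc1 (1.30), the laminin receptor and ribosomal protein Rpsa (1.16) and the translocation factor Eef2 (1.16). The 45 ribosome biogenesis genes had a median of 0.35 (31 higher in all 6 arrays, 2 lower), led by the subunit-joining factor Sbds (1.69) and nucleostemin (Gnl3, 1.42). The 31 initiation factors had one of 0.39. Of the 7 elongation genes, Eef1a2, the muscle and nerve form of the factor that delivers tRNA, ran the other way at -3.00, while its ubiquitous paralog Eef1a1 had 0.88. The 29 proteasome genes had a median of 0.05.

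The mitochondrial ribosome, a separate particle made of Mrpl and Mrps proteins, went against the cytosolic one between the hearts. In P1 against E12, 14 of 77 mitochondrial ribosomal protein genes were at least 2-fold higher (4.61% of genes), among them Mrpl9 (1.84) and Mrpl18 (1.63). Over all 77 the median was 0.61, with 61 higher (49.8% of all measured genes). This median was above 0 under the 5 other settings tried for it (0.28 to 0.65). In the same comparison ribosome biogenesis genes had a median of -0.38, with 11 of 45 at least 2-fold lower (4.29% of genes), among them the small nucleolar ribonucleoprotein genes Nop58 (-1.62), Fbl (-1.50) and Dkc1 (-1.39). The TOP genes that the rule did not take, a list that holds the ribosomal protein Rpsa (-1.96), had a median of -0.55, with Eef2 at -1.06 and nucleophosmin (Npm1) at -1.30. Of the 23 regulators in mTOR and Myc signalling, Mycn was the lowest in P1 (-2.05). In GMT iCMs against the P1 heart the mitochondrial ribosomal genes had a median of -0.49, which became 0.01 with median scaling and 0.13 on blank-subtracted signal. Against MEFs their median in GMT iCMs was 0.05, beside -0.16 for the cytosolic members.

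**Figure D5:**
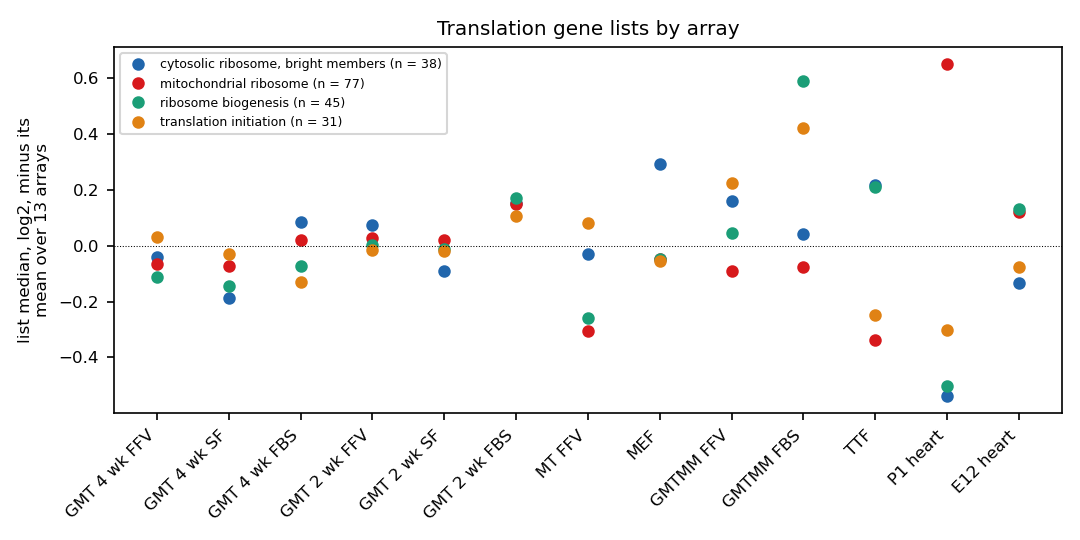
Medians of 4 gene lists on each array, as log2 levels minus each list's own mean over the 13 arrays. In the P1 heart the cytosolic ribosome (38 bright members) and ribosome biogenesis lie lowest while the mitochondrial ribosome lies highest.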

How the data were processed

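Total RNA was amplified, labelled with Cy5 and hybridised to 13 single-colour Toray arrays, per the labels' protocols. The deposited scanner tables give a spot median intensity per probe, per the file headers. The authors' deposited value table, also an intensity, is stated nowhere to be scaled in a named way and served as an alternative. Here, spot medians went through normexp (offset 50), spots flagged not good were left out (0 to 8 an array), and log2 values were quantile normalised. limma 3.58.1 in R 4.3.3 tested medium (context and medium as terms, 3 residual degrees of freedom) and time (2), two-sided with an intensity trend, over all genes above background on at least 2 arrays, with Benjamini-Hochberg adjustment at 0.05. Cell types, with 1 array each, were compared by log2 differences without a test. A difference counted as 2-fold when every pair reached it and the higher array lay well above background. Named members are those that passed a test, up to 5 at each end of a comparison by the smallest difference over its pairs, the 5 with the largest and 3 with the smallest SD around the members' median, the stalk genes, paralogs with their parents, Rpl14, Rpl5 and Rpl11; other lists give up to 4 each. Other names were chosen after their values were seen. The bright and dim split and the start-site sequences were chosen after seeing the data. The members and gene lists were chosen with earlier results of these data known. Of the fits, the one for medium was tested on simulated data, for FFV against FBS. Alternatives were median scaling, an offset of 16, blank-subtracted signal with a floor of 10, the deposited value table, the mean over a gene's probes, subtraction of the local surround, and leaving out each context.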

Additional observations from a re-analysis of the deposited data

How the results depend on the processing

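No paired analysis was possible because each group has 1 array and the labels give no replicate numbers, so a replicate block cannot be fitted. The fits for medium and time already compare arrays within a cell context or a medium through their terms. The members' median log2 difference depended on scaling as follows. With median scaling it was 0.83 for GMT iCMs against the P1 heart, 0.49 against the E12 heart and -0.28 against MEFs, 0.10 for GMTMM iCMs against TTFs, -0.46 for MT iCMs against MEFs, -0.12 for 4 against 2 weeks and -0.024 for FFV against SF. On blank-subtracted signal with a floor the same comparisons gave 0.98, 0.57, -0.36, 0.041, -0.61, -0.10 and 0, with -0.13 for MT against GMT iCMs, -0.39 for P1 against E12, 0.065 for MEFs against TTFs and -0.11 for FFV against FBS. The deposited value table gave 0.70 for GMT iCMs against the P1 heart and 0.33 against the E12 heart, 0.17 for GMTMM iCMs against TTFs, -0.45 for MT iCMs against MEFs, -0.20 for MT against GMT iCMs, -0.33 for P1 against E12, -0.18 for MEFs against TTFs, 0.071 for SF against FBS and -0.069 for FFV against SF. That table also shifted the median of all genes, by 0.17 for GMT iCMs against MEFs and 0.16 against the P1 heart. With the surround subtracted the medians were 0.41 for GMT iCMs against the P1 heart and 0.045 against the E12 heart, -0.22 for P1 against E12 and 0.070 for MEFs against TTFs, and an offset of 16 gave -0.35 for MT iCMs against MEFs. Bright members alone gave 0.54, 0.15 and -0.20 for GMT iCMs against the P1 heart, the E12 heart and MEFs, -0.076 for GMTMM iCMs against TTFs, -0.35 and -0.12 for MT iCMs against MEFs and GMT iCMs, -0.39 for P1 against E12 and 0.033 for MEFs against TTFs. Without the GMTMM arrays 2 members fell in FFV and 6 in SF against FBS. FFV against SF had medians of 0.012 without GMTMM, 0.036 without GMT at 2 weeks and 0.033 without GMT at 4 weeks. The cause of these changes was not tested. Signal over background was lowest on the TTF, GMTMM and MT arrays, where the median probe read 1.54 to 1.65 times the blank mean.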
